A study of Mus musculus with 21 samples.

Results

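The genes described here encode the constant regions of mouse immunoglobulins. They are the heavy chain genes Ighm, Ighd, Ighg1, Ighg2b, Ighg2c, Ighg3 and Igha, the kappa light chain gene Igkc and the lambda light chain genes Iglc1 and Iglc2. They are listed by symbol, and they are 10 of the 47729 gene identifiers counted in every library. All 10 were matched and all 10 passed the filter on low counts.

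An immunoglobulin constant region sets the class of an antibody and the signals its receptor form sends. A naive B cell transcribes Ighm and Ighd from the same rearranged V region and makes IgM or IgD by alternative processing of that long transcript. During class switch recombination DNA is broken upstream of Ighm and of a downstream gene, the stretch between them is lost, and the same V region is joined to an IgG, IgE or IgA gene. Each B cell otherwise uses kappa or lambda for its light chain, and the response of C57BL/6 mice to the hapten NP is known for its use of lambda light chains.

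RNA was sequenced from light zone (LZ) and dark zone (DZ) germinal centre B cells of C57BL/6 spleens taken 7 days after NP-KLH in alum. LZ cells are those in which antigen and T cell help are met, and DZ cells are those that divide and mutate their V regions. There were 4 groups of 4 libraries, namely LZ cKO, LZ control, DZ cKO and DZ control. The cKO mice were CD79acre/+Ptbp1fl/fl, which removes the RNA-binding protein PTBP1 in cells that express Cre from the Cd79a locus. The controls were CD79a+/+Ptbp1fl/fl, so both genotypes carried the floxed Ptbp1 alleles and only the cKO mice carried Cre and a single intact Cd79a allele. Loss of PTBP1 and these differences at Cd79a cannot be told apart here. Splenocytes of 3 to 5 animals, alike in genotype and sex, were pooled for each sort. The LZ and DZ libraries of 1 genotype and number came from the same pool, which gives 8 pools, and the number is the day of the sort, with males on days 1 and 2 and females on days 3 and 4. Cells were depleted with antibodies to IgD, CD3e, Gr1 and Ter119 before the sort, so the amount of IgD-bearing cells was limited by the preparation. In addition, 5 PTBP1 iCLIP libraries, which map cross-link positions of a protein on RNA, came from splenic B cells of females cultured with LPS for 48 hours.

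The libraries held 26823882 to 34240096 counts on genes. Ptbp1, the targeted gene, averaged 98.6 ± 16.4 CPM (counts scaled to the library's TMM-adjusted total over the genes tested) in LZ cKO and 382 ± 28.9 CPM in LZ control libraries (SD, n = 4 each). It averaged 103 ± 9.45 CPM in DZ cKO and 444 ± 31.4 CPM in DZ control libraries. The summed germinal centre B cell markers were 10821 to 12147 CPM in LZ cKO and 12286 to 13388 CPM in LZ control libraries. They were 9204 to 10432 CPM in DZ cKO and 11189 to 11953 CPM in DZ control libraries. They were thus lower in cKO with no overlap in either zone. Cd79a, of which cKO mice carry a single intact allele, is on that list. It was called lower in cKO (log2 fold change -0.98 in LZ and -1.27 in DZ cells, edgeR adjusted p = 0.00151 and 9.97e-05). It was the only 1 of the list's 12 tested genes called in either zone, where 1.08% (LZ) and 0.627% (DZ) of all genes were. The list's median log2 fold change was -0.08 in LZ and -0.20 in DZ cells. The sum without Cd79a was not examined. The summed light zone markers were 2303 to 2888 CPM in the LZ libraries and 709 to 979 CPM in the DZ libraries, and the dark zone markers were 1420 to 2345 CPM in the LZ and 3029 to 3765 CPM in the DZ libraries.

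In all, 3 libraries stood apart. The 10 genes together held 1.62, 2.36, 1.97 and 1.95% of gene counts in LZ cKO libraries 1 to 4 and 1.77, 2.09, 2.23 and 1.98% in LZ control libraries. They held 2.23, 7.13, 7.19 and 2.62% in DZ cKO libraries and 1.95, 2.60, 5.48 and 2.07% in DZ control libraries. DZ cKO 2, DZ cKO 3 and DZ control 3 thus exceeded 3.24%, which is 1.5 times the median of the 16 libraries, and they are called immunoglobulin-rich below. The LZ libraries from the same pools did not.

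Genes of antibody-secreting plasma cells were also high in those 3 libraries. Jchain, which joins IgM and IgA into polymers, was at 6601 to 9409 CPM in them and at 856 to 2568 CPM in the other 13 libraries. Sdc1, the plasma cell surface proteoglycan CD138, was at 68.7 to 106.6 CPM in the 3 against 5.16 to 21.0 CPM in the 13. Xbp1, a transcription factor of secretory cells, was at 773 to 1078 CPM in the 3 against 251 to 403 CPM in the 13. The 20 plasma cell genes summed to 3222 to 4765 CPM in LZ cKO, 3498 to 4622 CPM in LZ control, 4414 to 16502 CPM in DZ cKO and 4966 to 12120 CPM in DZ control libraries. The part that plasma cells play in the results below was not tested, and the DZ value of each gene without the 3 libraries is given beside it. The LZ genotype comparisons hold none of the 3. In bulk RNA, more cells of a class and more RNA per cell cannot be told apart.

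**Figure D1:**
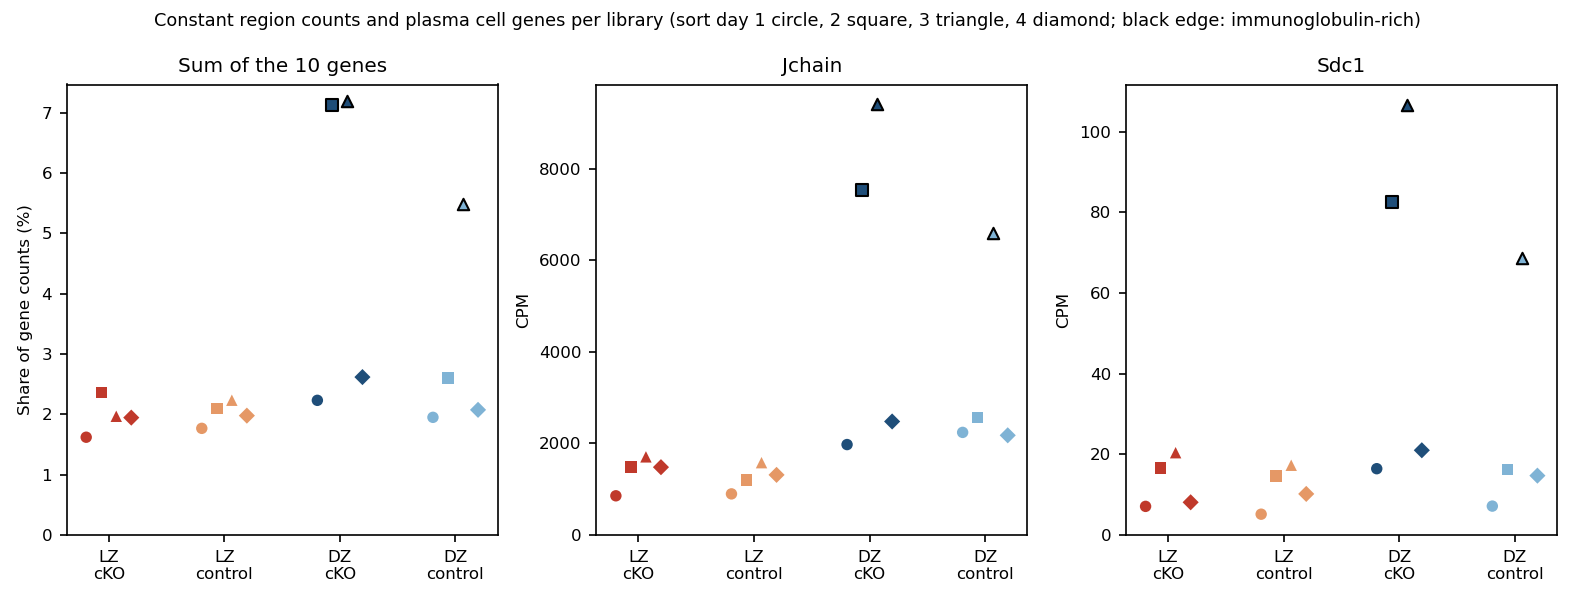
Each point is 1 library, placed by group on the x axis, with the share of gene counts held by the 10 genes (%), the CPM of Jchain and the CPM of Sdc1 on the y axes. Marker shape gives the sort day, and the 3 immunoglobulin-rich DZ libraries (black edge) lie above the other 13 in all 3 panels.

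The main result was a different makeup of the heavy chain counts in the cKO germinal centre. Within the 7 heavy chain genes, Ighm held 30.4 ± 12.5% of counts in LZ cKO and 62.6 ± 9.36% in LZ control libraries, and Ighg1 held 55.0 ± 11.1% in LZ cKO and 25.9 ± 9.40% in LZ control libraries (SD, n = 4 each). Among DZ libraries Ighm held 33.0 ± 12.5% in cKO and 64.7 ± 12.3% in control libraries, and Ighg1 held 41.4 ± 5.40% in cKO and 20.2 ± 5.71% in control libraries. The IgG and IgA genes together held 69.0 ± 13.0% in LZ cKO and 36.7 ± 9.72% in LZ control libraries, and 66.8 ± 12.6% in DZ cKO and 35.0 ± 12.4% in DZ control libraries. These are shares of read counts, not of cells or of molecules, since the genes differ in length.

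The difference was present in every library. The Ighm share was 39.0, 42.0, 14.9 and 25.7% in LZ cKO libraries 1 to 4 and 72.4, 64.3, 49.8 and 63.9% in LZ control libraries. The DZ shares were 46.9, 34.7, 16.5 and 33.9% in cKO and 77.6, 66.2, 48.0 and 67.0% in control libraries. No cKO library reached the lowest control library of its zone, and on each of the 4 sort days the cKO share was lower, by 22.3 to 38.2 percentage points in LZ and by 30.7 to 33.1 points in DZ cells. The shares of Ighm, Ighg1, Ighg2b, Ighg3, the IgG genes, and the IgG and IgA genes together did not overlap between genotypes in either zone. The last is called the share of switched genes below, and it leaves out Ighe. For each of these 12 comparisons the exact two-sided permutation test gave p = 0.0286, the smallest p that 4 against 4 libraries allow. The 12 are not independent of each other. They are shares of the same total, the IgG and switched shares contain single genes of the list, and LZ and DZ libraries share pools. The adjusted p was 0.0879 over the 40 share comparisons made, so none passed 0.05 after adjustment. Without the immunoglobulin-rich libraries, 2 DZ cKO libraries stood against 3 DZ control libraries, with Ighm shares of 40.4% and 70.3% that did not overlap, and the exact test could not give less than 0.2.

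**Figure D2:**
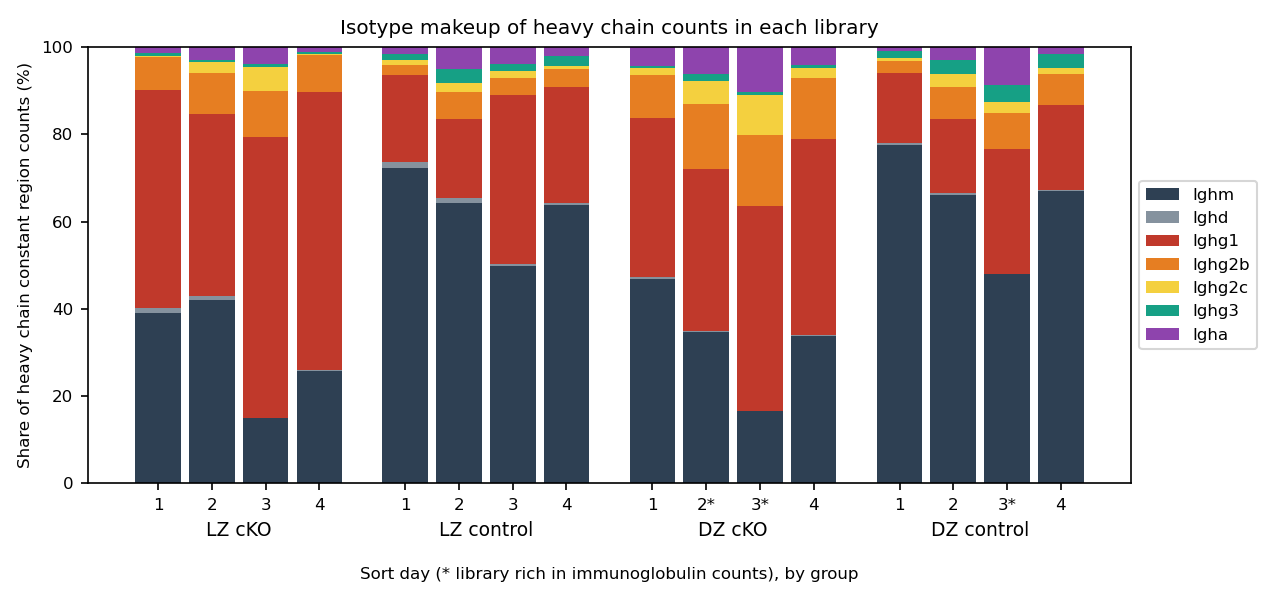
Stacked bars give the share of heavy chain constant region counts (%, y axis) held by each of the 7 heavy chain genes in each library, ordered by group and sort day (x axis); an asterisk marks the immunoglobulin-rich libraries. Ighm takes 14.9 to 46.9% in the cKO libraries and 48.0 to 77.6% in the control libraries.

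Ighm encodes the heavy chain of IgM (GRCm38.p6, chr12:113418826-113422730, minus strand, as are all heavy chain genes). Its level was 3617, 6184, 1819 and 2991 CPM in LZ cKO libraries and 8068, 8472, 7232 and 8353 CPM in LZ control libraries. All 4 LZ cKO libraries lay below all 4 LZ control libraries. Its log2 fold change was -1.14 ± 0.36 (SE), with an adjusted p of 0.16 by edgeR's quasi-likelihood test with Benjamini-Hochberg adjustment over 15789 genes. With sort day as a block it was -1.23 ± 0.31 (edgeR adjusted p = 0.0392), so Ighm fell in that fit. In DZ cells the levels were 6277, 15850, 7595 and 5167 CPM in cKO and 8616, 10466, 16640 and 9120 CPM in control libraries. These groups overlapped, the log2 fold change was -0.36 ± 0.36 (edgeR adjusted p = 0.791), and cKO was lower on 3 of 4 days. Without the immunoglobulin-rich libraries the DZ value was -0.70 ± 0.35 (edgeR adjusted p = 0.691).

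Ighd encodes the heavy chain of IgD (chr12:113407535-113416324). It was at 113, 130, 15.9 and 26.7 CPM in LZ cKO and at 134, 126, 45.8 and 49.4 CPM in LZ control libraries. Its DZ levels were 54.2, 51.8, 23.8 and 27.6 CPM in cKO and 44.1, 57.0, 30.0 and 36.7 CPM in control libraries. In all 4 groups the libraries of days 1 and 2, from males, were above those of days 3 and 4, from females, and the genotypes overlapped. Sex and day cannot be told apart. Genotype log2 fold changes were -0.31 ± 0.56 in LZ and -0.09 ± 0.56 in DZ cells (edgeR adjusted p = 0.885 and 0.976), and the DZ value was -0.16 ± 0.76 without the immunoglobulin-rich libraries (edgeR adjusted p = 0.998).

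Ighg1 encodes IgG1 (chr12:113326541-113330523), the main IgG class of responses to protein in alum. Its level was 4648, 6126, 7851 and 7433 CPM in LZ cKO and 2221, 2389, 5644 and 3471 CPM in LZ control libraries. Among DZ libraries it reached 4868, 16979, 21687 and 6847 CPM in cKO and 1775, 2671, 9876 and 2639 CPM in control libraries. The groups overlapped through control library 3, but cKO was higher on each of the 4 days in both zones. This gave log2 fold changes of 0.92 ± 0.53 in LZ (edgeR adjusted p = 0.49) and 1.57 ± 0.54 in DZ cells (edgeR adjusted p = 0.226). With sort day as a block Ighg1 rose in DZ cells, by 1.68 ± 0.32 (edgeR adjusted p = 0.0142). That fit holds the immunoglobulin-rich libraries, and without them the DZ value was 1.33 ± 0.35 and did not pass (edgeR adjusted p = 0.262).

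Ighg2b (chr12:113304314-113307933) was measured at 690, 1389, 1272 and 991 CPM in LZ cKO and 266, 838, 558 and 551 CPM in LZ control libraries. The DZ libraries had 1329, 6759, 7412 and 2145 CPM in cKO and 311, 1159, 2882 and 983 CPM in control libraries. It was higher in cKO on all 4 days in both zones, although the groups overlapped. Log2 fold changes were 0.97 ± 0.59 in LZ and 1.73 ± 0.61 in DZ cells (edgeR adjusted p = 0.528 and 0.241). It rose in DZ cells in the fit with sort day as a block, by 1.74 ± 0.34 (edgeR adjusted p = 0.0161). The DZ value without the immunoglobulin-rich libraries was 1.11 ± 0.50 and did not pass (edgeR adjusted p = 0.652). Its share of heavy chain counts was 8.95 ± 1.29% in LZ cKO against 4.20 ± 1.64% in LZ control, and 13.7 ± 2.67% in DZ cKO against 6.41 ± 2.46% in DZ control libraries.

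Ighg3 (chr12:113357442-113361232) encodes IgG3, the IgG class known from T cell-independent responses, and its difference had the opposite sign to those of Ighg1 and Ighg2b. It was at 62.7, 79.7, 75.2 and 64.0 CPM in LZ cKO and at 163, 417, 219 and 301 CPM in LZ control libraries. The LZ groups did not overlap and the cKO libraries lay close together. The log2 fold change was -1.97 ± 0.65 (edgeR adjusted p = 0.175). It fell in LZ cells with sort day as a block (-1.87 ± 0.50, edgeR adjusted p = 0.0471). In a fit without the immunoglobulin-rich libraries the LZ value was -1.96 ± 0.32 (edgeR adjusted p = 0.0132). All 3 of those are DZ libraries, so the LZ libraries were the same and only the SE was smaller. Ighg3 was the only 1 of the 10 called there, where 0.816% of genes were. Its DZ levels were 78.1, 698, 312 and 85.4 CPM in cKO and 174, 516, 1281 and 440 CPM in control libraries, lower in cKO on 3 of 4 days (-1.04 ± 0.63, edgeR adjusted p = 0.589). The DZ value was -2.19 ± 0.44 without the immunoglobulin-rich libraries (edgeR adjusted p = 0.0889). Its share of heavy chain counts was 0.596 ± 0.063% in LZ cKO against 2.11 ± 0.80% in LZ control and 0.838 ± 0.46% in DZ cKO against 2.94 ± 0.94% in DZ control libraries, a ratio of 0.282 in LZ and 0.285 in DZ cells.

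Ighg2c (chr12:113287389-113288932), the IgG2 gene of C57BL/6 mice known from interferon gamma-driven responses, had the largest standard errors of the 10 genes in both genotype comparisons. It was at 30.9, 368, 683 and 31.3 CPM in LZ cKO and at 118, 258, 235 and 78.5 CPM in LZ control libraries. The DZ levels were 212, 2423, 4249 and 348 CPM in cKO and 74.4, 471, 915 and 178 CPM in control libraries. In LZ cells cKO was lower on days 1 and 4 and higher on days 2 and 3, and no direction held. In DZ cells it was higher on all 4 days (log2 fold change 2.14 ± 1.12, edgeR adjusted p = 0.514). This shrank to 0.23 ± 1.18 without the immunoglobulin-rich libraries (edgeR adjusted p = 0.998). Reads from Ighg2b and Ighg2c are uncertain where the genes are near identical.

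Igha (chr12:113256204-113260236) encodes IgA, the antibody of mucosal surfaces. It was at 124, 433, 472 and 122 CPM in LZ cKO and 179, 670, 578 and 275 CPM in LZ control libraries, and lower in cKO on all 4 days. The DZ levels were 570, 2862, 4758 and 640 CPM in cKO and 105, 478, 3054 and 220 CPM in control libraries, higher in cKO on all 4 days. The groups overlapped in each zone. The log2 fold changes of -0.56 ± 0.95 in LZ and 1.20 ± 0.96 in DZ cells did not pass the edgeR test (adjusted p = 0.877 and 0.72). The DZ value was 1.19 ± 0.71 without the immunoglobulin-rich libraries (edgeR adjusted p = 0.793). Single libraries moved it more, to 3.05 without DZ control 3 and to 0.49 without DZ cKO 3. The interaction of zone and genotype, which asks whether these differ, was -1.76 ± 1.35 (edgeR adjusted p = 0.9998). It was -2.53 ± 0.63 with pool as a block (edgeR adjusted p = 0.687), and negative on all 4 days.

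**Figure D3:**
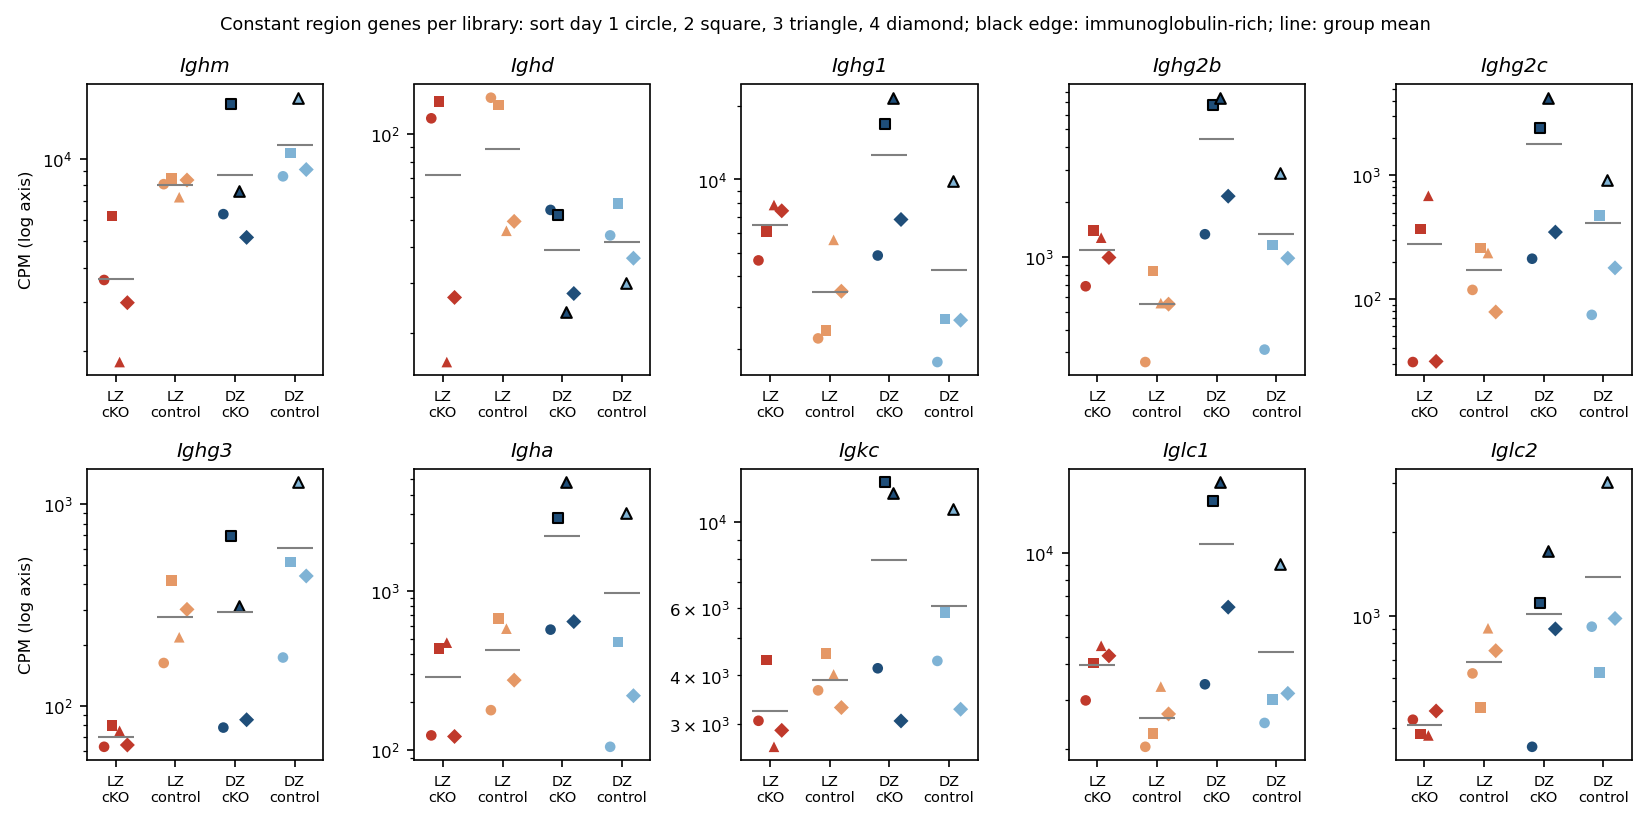
Each panel shows 1 of the 10 genes, with CPM on a log y axis and the 4 groups on the x axis; points are libraries, marker shape is the sort day, a black edge marks the immunoglobulin-rich libraries and grey lines are group means. In LZ cells all 4 cKO libraries lie below all 4 control libraries for Ighm, Ighg3 and Iglc2.

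Igkc, the single kappa constant gene (chr6:70726435-70726754, plus strand), was at 3052, 4383, 2613 and 2883 CPM in LZ cKO and at 3660, 4559, 4026 and 3303 CPM in LZ control libraries. Its DZ levels were 4176, 12664, 11916 and 3049 CPM in cKO and 4363, 5819, 10833 and 3270 CPM in control libraries. The genotypes overlapped in both zones. The log2 fold change was -0.27 ± 0.41 in LZ and 0.39 ± 0.41 in DZ cells (edgeR adjusted p = 0.866 and 0.815), and the DZ value was -0.30 ± 0.25 without the immunoglobulin-rich libraries (edgeR adjusted p = 0.914).

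Iglc1, the constant gene of lambda 1 (chr16:19061752-19062071), was at 2981, 4046, 4662 and 4295 CPM in LZ cKO and at 2039, 2272, 3338 and 2668 CPM in LZ control libraries. The DZ libraries had 3401, 15279, 17751 and 6396 CPM in cKO and 2479, 2999, 9111 and 3157 CPM in control libraries. It was higher in cKO on all 4 days in both zones, with overlapping groups. Iglc1 had log2 fold changes of 0.63 ± 0.46 in LZ and 1.27 ± 0.46 in DZ cells (edgeR adjusted p = 0.625 and 0.265). With sort day as a block Iglc1 rose in DZ cells, by 1.25 ± 0.31 (edgeR adjusted p = 0.0489). It did not pass without the immunoglobulin-rich libraries (DZ value 0.79 ± 0.26, edgeR adjusted p = 0.421).

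Iglc2, the constant gene of lambda 2 (chr16:19198536-19198852), was at 427, 380, 375 and 459 CPM in LZ cKO and at 625, 471, 906 and 753 CPM in LZ control libraries, with no overlap. Its DZ levels were 342, 1112, 1706 and 901 CPM in cKO and 918, 631, 3002 and 982 CPM in control libraries, with overlap. Iglc2 had log2 fold changes of -0.75 ± 0.45 in LZ and -0.45 ± 0.45 in DZ cells (edgeR adjusted p = 0.524 and 0.8), the DZ value being -0.42 ± 0.35 without the immunoglobulin-rich libraries (edgeR adjusted p = 0.905). Reads shared with the near-identical Iglc3 make its level uncertain.

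The 3 light chain genes span 317 to 320 bases, so their counts can be set against each other. Lambda (Iglc1 and Iglc2) held 57.8 ± 7.46% of light chain counts in LZ cKO and 45.5 ± 6.76% in LZ control libraries. The DZ values were 59.1 ± 9.77% in cKO and 47.7 ± 8.05% in control libraries. The share was higher in cKO on all 4 days in both zones, by 10.6 to 14.5 percentage points in LZ and by 3.50 to 18.0 points in DZ cells. The groups overlapped, and within each of the 4 groups the libraries of days 3 and 4 were higher than those of days 1 and 2. The exact permutation test gave p = 0.0857 in LZ and 0.114 in DZ cells (adjusted p = 0.229 and 0.269 over the 40 comparisons). Without the immunoglobulin-rich libraries the DZ difference was 12.9 points (exact permutation p = 0.4).

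The makeup within a class was examined after the values were seen and is given without a test. Iglc2 made up 12.5, 8.58, 7.45 and 9.66% of lambda counts in LZ cKO and 23.5, 17.2, 21.3 and 22.0% in LZ control libraries. The DZ values were 9.14, 6.78, 8.77 and 12.3% in cKO and 27.0, 17.4, 24.8 and 23.7% in control libraries. The genotypes did not overlap in either zone. Ighg3 made up 0.917 ± 0.196% of the counts of the 4 IgG genes in LZ cKO against 6.68 ± 3.07% in LZ control, and 1.41 ± 0.81% in DZ cKO against 9.28 ± 1.55% in DZ control libraries. Ighg1 made up 82.3 ± 4.90% in LZ cKO against 76.3 ± 10.4% in LZ control and 68.8 ± 5.89% in DZ cKO against 64.9 ± 8.61% in DZ control libraries, with overlap. Ighd made up 1.71 ± 1.05% of Ighm and Ighd counts in LZ cKO against 1.08 ± 0.55% in LZ control, and 0.506 ± 0.254% in DZ cKO against 0.408 ± 0.163% in DZ control libraries, also with overlap.

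**Figure D4:**
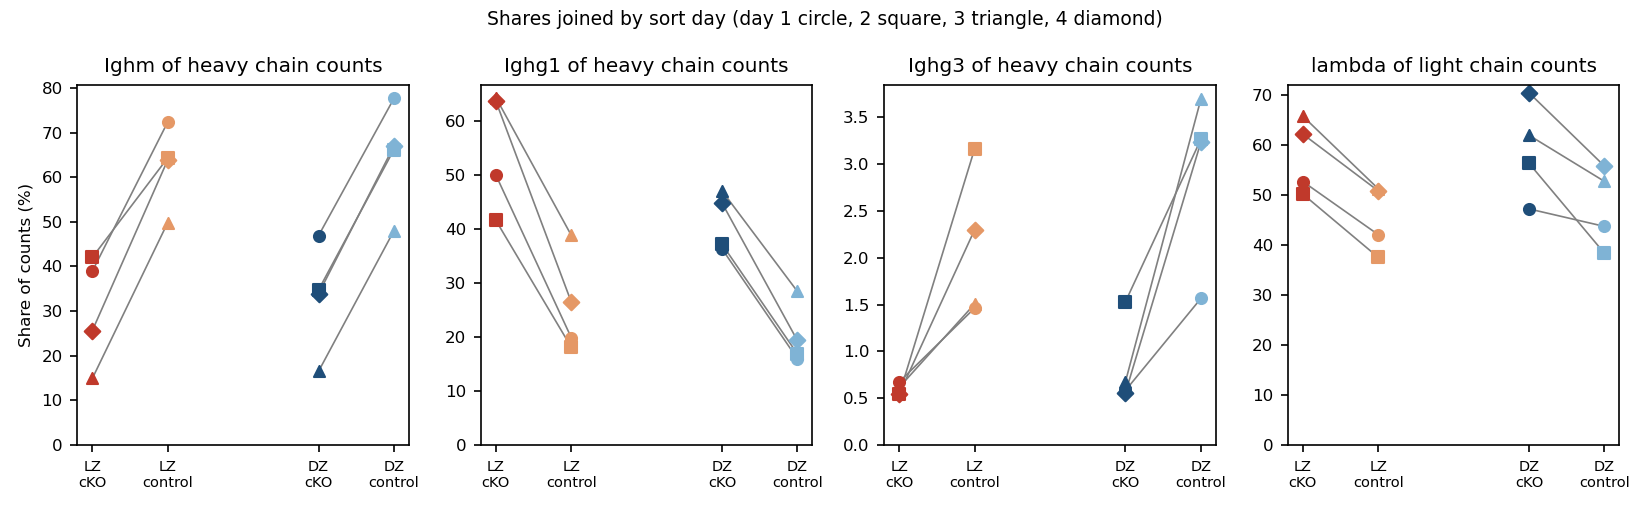
Shares of Ighm, Ighg1 and Ighg3 among heavy chain counts and of lambda among light chain counts (%, y axes) are shown per library, with lines joining the cKO and control libraries of the same zone and sort day. In each panel the 4 lines of a zone run in the same direction, downward to cKO for Ighm and Ighg3 and upward to cKO for Ighg1 and lambda.

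Ighe, which encodes IgE and was not among the 10 genes, was added after its values were seen. It was at 715, 1020, 1675 and 1197 CPM in LZ cKO and at 117, 190, 397 and 219 CPM in LZ control libraries. In DZ cells it was at 430, 1027, 3552 and 455 CPM in cKO and at 31.8, 27.8, 342 and 48.3 CPM in control libraries. The genotypes did not overlap in either zone. The log2 fold change was 2.32 ± 0.83 in LZ and 3.60 ± 0.88 in DZ cells (edgeR adjusted p = 0.218 and 0.0857). Ighe rose in both with sort day as a block, by 2.44 ± 0.42 and 3.82 ± 0.45 (edgeR adjusted p = 0.00663 and 0.000882). In DZ cells it rose as well without the immunoglobulin-rich libraries, by 3.64 ± 0.44 (edgeR adjusted p = 0.0038). The LZ value of that fit was 2.32 ± 0.34 (edgeR adjusted p = 0.00827). It comes from the same LZ libraries with a smaller SE, since all 3 libraries left out are DZ, and is not a separate check. Counts on an IgG, IgE or IgA gene include unswitched transcripts that start at the gene's own upstream promoter, which gene counts do not separate from switched mRNA.

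Against all genes, the CPM differences between genotypes read as follows. In LZ cells 3 of the 10 genes (Ighm, Ighg3 and Iglc2) did not overlap between cKO and control, all lower, where 8.65% of the 15789 genes tested did not overlap. In DZ cells the count was 0 of 10, where 6.38% of genes did not overlap. None of the 10 passed the edgeR test in LZ cells, where 1.08% of genes did. An unadjusted p under 0.05 was found for 2 of the 10 and for 2118 of the 15789 genes. None passed in DZ cells, where 0.627% of genes did. There the unadjusted p was under 0.05 for 3 of the 10 and for 1793 of the 15789 genes. DESeq2 also called 0 of 10 in LZ, where it called 4.57% of genes, and 0 of 10 in DZ cells, where it called 3.04%. With sort day as a block, edgeR called 2 of 10 in LZ (Ighm and Ighg3, lower), where 5.5% of genes were called, and 3 of 10 in DZ cells (Ighg1, Ighg2b and Iglc1, higher), where 3.27% were called. Without the immunoglobulin-rich libraries it called 0 of 10 in DZ cells, where 0.173% of genes were called. The median log2 fold change of the 10 was -0.29 in LZ and 0.79 in DZ cells, where that of all genes was 0.019 and 0.011. The interaction was called for 0 of the 10 and for 0 of all genes (0%) by edgeR, with an unadjusted p under 0.05 for 0 of the 10 and 466 of 15789 genes. DESeq2 called the interaction for 6 genes (0.0242%), none of them among the 10. That fit does not use the pairing of LZ and DZ libraries within pools. Within sort days, 6 of the 10 interactions had the same sign on all 4 days, and all 10 were negative in the main edgeR fit. The median over all genes was -0.0076, and signs were not counted over all genes. The 10 genes are not independent of each other. Without the immunoglobulin-rich libraries the interaction was positive for Ighg2c (0.46), Ighg3 (0.22) and Igkc (0.035) and negative for the others. For Ighm the day values were -0.70, -1.05, -0.86 and -0.66 on the log2 scale. With pool as a block, a fit added after the data were seen, the interaction was -0.82 ± 0.32 for Ighm, -2.04 ± 0.47 for Ighg2c and -2.53 ± 0.63 for Igha. These 3 had an unadjusted p under 0.05, as did 1013 of all genes, and edgeR called 0 of the 10 and 0% of genes (adjusted p of the 3 from 0.682 to 0.753). A difference between zones in the genotype effect thus did not pass adjustment over all genes for any of the 10.

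**Figure D5:**
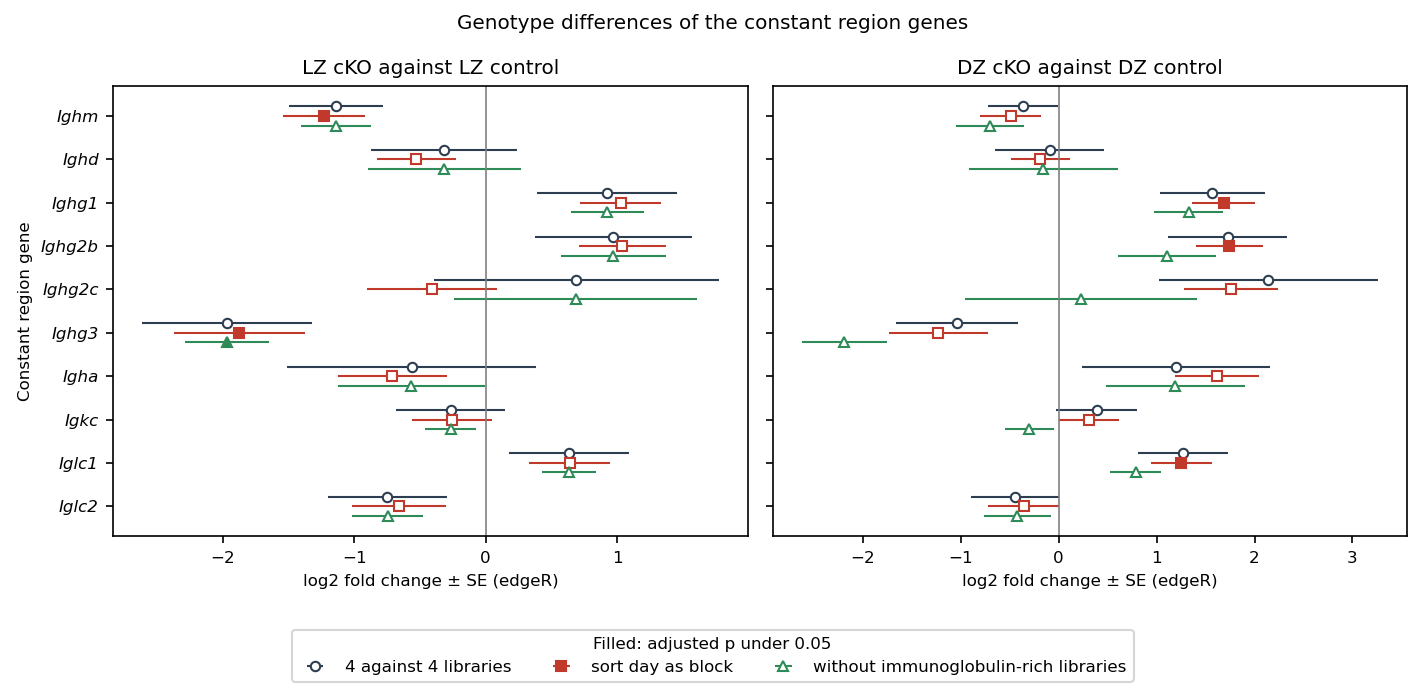
Log2 fold change of cKO over control (x axis, bars are SE) for each of the 10 genes (y axis) in LZ cells on the left and DZ cells on the right, from edgeR fits with 4 against 4 libraries, with sort day as a block and without the immunoglobulin-rich libraries; filled symbols have an adjusted p under 0.05. Ighm and Ighg3 lie below 0 and Ighg1, Ighg2b and Iglc1 above 0 in all 3 fits of both zones.

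Between zones, 9 of the 10 genes had a negative log2 fold change of LZ over DZ cells in each genotype in the main fit. The immunoglobulin-rich libraries are all DZ libraries. Without them Ighg1 (0.55) and Igha (0.68) were positive in control mice, and Ighg1 (0.15) was positive in cKO mice. Signs were not counted over all genes. In cKO mice Ighm fell in LZ against DZ cells, with a mean of 3653 ± 1845 CPM in LZ cKO and 8722 ± 4854 CPM in DZ cKO libraries (log2 fold change -1.26 ± 0.36, edgeR adjusted p = 0.0402). It was the only 1 of the 10 to pass, where 9.09% of genes passed in either direction and 4.18% were lower. The call was lost without LZ cKO 1, 3 or 4 or DZ cKO 2 or 3 (edgeR adjusted p 0.0672 to 0.137). The log2 fold change was -0.80 without DZ cKO 2 and between -1.31 and -1.02 without each of the other 4. It was also lost without all immunoglobulin-rich libraries (-0.65 ± 0.31, edgeR adjusted p = 0.332). With sort day as a block 7 of 10 were lower, where 17.3% of genes were called and 8.99% were lower. They were Ighm, Ighg2b, Ighg2c, Ighg3, Igha, Igkc and Iglc1, with log2 fold changes of -2.82 (Ighg2c) to -1.08 (Igkc). With pool as a block 5 were lower (Ighm, Ighg2b, Ighg2c, Igha and Iglc1), where 17.8% of genes were called. DESeq2 called 6 of the 10, all lower, where it called 16.1% of genes. No gene of the 10 was called without the immunoglobulin-rich libraries, where 4% of genes were. Igha was the only gene of the 10 whose LZ cKO and DZ cKO libraries did not overlap, where 14.3% of genes did not. Its share of heavy chain counts was 2.30 ± 1.34% in LZ cKO and 6.27 ± 2.88% in DZ cKO libraries (exact permutation p = 0.0286, adjusted p = 0.0879).

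In control mice none of the 10 genes passed the edgeR test between LZ and DZ cells, where 7.49% of genes did. An unadjusted p under 0.05 was found for 1 of the 10 and for 3136 of the 15789 genes. DESeq2 also called 0 of 10, where it called 11.3% of genes, and so did the edgeR fit with sort day as a block, which called 13.7%, and the fit with pool as a block, which called 13.8%. Ighm alone did not overlap, where 14.3% of genes did not, with means of 8031 ± 559 CPM in LZ control and 11211 ± 3703 CPM in DZ control libraries (-0.48 ± 0.36, edgeR adjusted p = 0.518). In the main fit Ighd was the only gene of the 10 with a positive log2 fold change in both zone comparisons (1.08 ± 0.56 in control and 0.86 ± 0.56 in cKO, edgeR adjusted p = 0.31 and 0.402). Of the 20 zone comparisons of shares, the Igha share in cKO alone reached the smallest exact permutation p, and the other 19 had p from 0.0571 to 0.857 (adjusted p 0.163 to 0.857). Some had the same sign on all 4 days in both genotypes. The Ighg1 share was higher in LZ, at 55.0% in LZ cKO and 41.4% in DZ cKO libraries (exact p = 0.114) and at 25.9% in LZ control and 20.2% in DZ control libraries (exact p = 0.343). The Ighg2b share was lower in LZ, at 8.95% in LZ cKO and 13.7% in DZ cKO libraries (exact p = 0.0571) and at 4.20% in LZ control and 6.41% in DZ control libraries (exact p = 0.229). The Ighd share was higher in LZ on all 4 days in both genotypes as well (exact p = 0.2 in cKO and 0.143 in control). The lambda share was lower in LZ on all 4 days in controls and on 2 of 4 days in cKO mice. The comparisons within a genotype share pools, and the comparisons that share a group are not independent of each other.

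The machinery of class switching was measured beside these genes. Of 36 listed genes 35 were matched and tested, and the only call between genotypes was Ptbp2, a paralogue of Ptbp1, which rose in LZ cKO (3.60 ± 0.22, edgeR adjusted p = 2.05e-07) and in DZ cKO cells (3.75 ± 0.22, edgeR adjusted p = 1.16e-07). The list's median log2 fold change was -0.13 in LZ and -0.10 in DZ cells. Between zones 1 gene of the list was higher and 3 were lower in LZ than in DZ cells of cKO mice, and 1 was higher and 2 lower in control mice, where 9.09% and 7.49% of all genes were called. Hmces, which protects abasic DNA, and Lig4, the ligase of end joining, were lower in LZ than in DZ cells in cKO (-1.41 ± 0.21 and -0.93 ± 0.21, edgeR adjusted p = 0.000586 and 0.0104). They were lower in LZ than in DZ cells of controls too (-1.39 ± 0.21 and -1.23 ± 0.21, edgeR adjusted p = 0.000658 and 0.0017). Apex2, an endonuclease for abasic sites, was lower in LZ cells of cKO mice (-0.68 ± 0.16, edgeR adjusted p = 0.0136). Xrcc5, the Ku80 subunit of end joining, was higher in LZ cells of cKO mice (0.52 ± 0.15, edgeR adjusted p = 0.0436), and Apex1, the main endonuclease for abasic sites, was higher in LZ cells of controls (0.69 ± 0.14, edgeR adjusted p = 0.00528).

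The receptors and transcription factors that direct switching to a class formed a list of 26 genes. None was called between genotypes in either zone by edgeR. In LZ against DZ cells 12 were higher and 1 lower in cKO mice, and 9 were higher and 1 lower in control mice, where 9.09% and 7.49% of all genes were called. Cd40, the receptor for T cell help, rose in LZ cells by 1.64 ± 0.15 in cKO and 1.34 ± 0.15 in control mice (edgeR adjusted p = 7.03e-06 and 4.98e-05), and Il4ra, the IL-4 receptor chain, rose by 0.51 ± 0.09 in cKO and 0.60 ± 0.09 in control mice (edgeR adjusted p = 0.00283 and 0.000894). Tgfbr1, a receptor for TGF beta, fell by 0.82 ± 0.16 in cKO and 0.97 ± 0.16 in control mice on the log2 scale (edgeR adjusted p = 0.00502 and 0.00158).

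Among 19 genes for processing of immunoglobulin RNA, none was called between genotypes by edgeR. In LZ against DZ cells 1 was higher and 1 lower in cKO mice, where 9.09% of all genes were called. In control mice 2 were higher and 1 lower, where 7.49% were called. Cpsf2 was lower in LZ cells in cKO and control (-0.44 ± 0.11 and -0.49 ± 0.11, edgeR adjusted p = 0.0218 and 0.0124). Cpsf3 was higher in LZ cells of controls (0.34 ± 0.09, edgeR adjusted p = 0.0272). Zfp318, which is needed for the long transcript from which Ighd mRNA is made, rose in LZ against DZ cells in both genotypes (1.63 ± 0.44 in cKO and 1.70 ± 0.44 in control, edgeR adjusted p = 0.0294 and 0.0271). It was at 25.0, 31.0, 12.6 and 14.2 CPM in LZ cKO and 28.6, 24.8, 11.2 and 13.9 CPM in LZ control libraries. In DZ cells it was at 7.61, 11.5, 2.52 and 5.05 CPM in cKO and 6.60, 8.75, 4.02 and 4.83 CPM in control libraries. Like Ighd, it was higher on days 1 and 2 than on days 3 and 4 in each of the 4 groups.

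Of the 20 plasma cell genes none was called between genotypes in either zone by edgeR. In LZ against DZ cells of cKO mice 3 were lower and 1 higher, where 9.09% of all genes were called. In control mice 2 were lower and 1 higher, where 7.49% of all genes were called. Jchain was 1 of the 3 lower in cKO mice, at 856, 1484, 1707 and 1481 CPM in LZ cKO and 1975, 7535, 9409 and 2479 CPM in DZ cKO libraries (-1.95 ± 0.47, edgeR adjusted p = 0.0164). Lists for other cell types were summed too, and their part in the results was not tested. The naive and memory B cell list summed to 2187 to 3571 CPM in LZ cKO and 2240 to 2715 CPM in LZ control libraries. Its DZ sums were 880 to 1503 CPM in cKO and 909 to 1223 CPM in control libraries. Between genotypes, edgeR called Gpr183 of its 14 genes higher in LZ cKO (1.22 ± 0.21, edgeR adjusted p = 0.0105) and Cr2 lower in DZ cKO cells (-1.15 ± 0.17, edgeR adjusted p = 0.00409). It called 1.08% of all genes in LZ and 0.627% in DZ cells. In LZ against DZ cells 7 of these 14 were higher and 1 lower in cKO mice, where 9.09% of all genes were called. In control mice 6 were higher and 0 lower, where 7.49% of all genes were called. The macrophage list summed to 85.6 to 517 CPM in LZ cKO (median 214), 29.9 to 427 CPM in LZ control (median 61.5), 57.1 to 1281 CPM in DZ cKO (median 521) and 25.4 to 446 CPM in DZ control libraries (median 41.7). The neutrophil list stayed at 0 to 51.4 CPM and the erythroid list at 8.86 to 40.0 CPM over all libraries. The T cell list was at 492 to 910 CPM in LZ and at 274 to 489 CPM in DZ libraries.

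The genes most similar to Ighm, Ighg1 and Igkc in log2 CPM over the 16 libraries were found among 8783 genes outside the immunoglobulin loci. For Ighg1 they were Slpi (r = 0.966), Arfgap3 (r = 0.905) and Ero1l (r = 0.904). For Igkc they were H13 (r = 0.893), Rexo2 (r = 0.884) and Edem2 (r = 0.882). For Ighm they were Hist1h1c (r = 0.839), Endou (r = 0.769) and Stk24 (r = 0.766). Slpi was at 671 to 1479 CPM in the 3 immunoglobulin-rich libraries and 107 to 422 CPM in the other 13. Arfgap3, H13, Rexo2 and Edem2 were also higher in each of the 3 than in any of the 13, while Ero1l, Hist1h1c, Endou and Stk24 overlapped. Over the 13 libraries r was 0.932 for Slpi, 0.792 for Arfgap3 and 0.934 for Ero1l with Ighg1, and 0.707 to 0.823 for the 3 genes with Ighm. With Igkc it was 0.411 for H13, 0.288 for Rexo2 and -0.0019 for Edem2. Among the 10 genes, Ighg1 varied with Iglc1 (r = 0.930) and Ighm with Ighg3 (r = 0.854), while Ighm and Ighg1 had r = -0.041. These values describe the libraries and carry no test.

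PTBP1 cross-link positions in the LPS-cultured B cells were examined at the same genes, as the authors' list summed over the 5 iCLIP libraries gives them, with 244659 positions in all. Ighm held 184 positions with 475 cDNAs, or 47.1 positions per kb of its span, and Ighd held 113 positions with 186 cDNAs, or 12.9 per kb. The stretch of 2501 bases between these genes (chr12:113416325-113418825) held a further 53 positions with 127 cDNAs. All of these lay on the minus strand, the strand that is transcribed into immunoglobulin RNA. The highest in Ighm were at 113421052 and 113422634, with 36 cDNAs each, and at 113419285 with 22. In the 5 separate lists Ighm had 18, 17, 4, 43 and 22 positions and Ighd had 3, 23, 3, 24 and 29.

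Igkc, with a span of 320 bases, had 12 positions with 24 cDNAs in the summed list, or 37.5 positions per kb. It had 0 positions in each of the 5 separate lists, as had Iglc2. Ighg3 had 1, 0, 0, 2 and 0 positions in the separate lists, and Iglc1 had 0, 2, 0, 0 and 0. The values that follow are those of the summed list. Ighg3 had 5 positions with 11 cDNAs (1.32 per kb), Iglc2 had 3 with 5 (9.46 per kb) and Iglc1 had 2 with 3 (6.25 per kb). Ighg1, Ighg2b, Ighg2c and Igha had none listed, and neither had Ighe. The list keeps only positions that passed the authors' false discovery threshold, and a position needs RNA to be present. The levels of the immunoglobulin transcripts in the LPS culture were not analysed here, so a gene without a position is not shown to be unbound.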

How the data were processed

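RNA-seq was made from 16 sorted samples of 8 pools with a low-input kit that starts from polyadenylated RNA (2 ng of RNA, 0.5 ng of cDNA, 8 PCR cycles), per the labels' protocols. Trim Galore 0.4.2, HISAT2, HTSeq and the build GRCm38 are named in the submitters' processing notes. The deposited files hold raw counts per Ensembl identifier. Whether counting used strand is not stated by any source used here. The 5 summary lines of each file (41.4 to 49.8% of all entries, with non-unique alignments) were left out of library sizes. CPM values were computed here from the counts on the genes tested, over library totals scaled by TMM factors; shares of counts use unscaled counts. The iCLIP lists hold a signed cDNA count per cross-link position; the sign is the strand, per the deposited files.

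Symbols were matched by Ensembl identifier (47224 of 47729). Coordinates are from a RefSeq table of GRCm38.p6. Genes were filtered with filterByExpr (minimum count 10), scaled by TMM and tested with edgeR 4.0.16 (R 4.3.3, quasi-likelihood, robust, all 16 libraries in 1 fit, Benjamini-Hochberg over 15789 genes, threshold 0.05), checked on simulated counts. DESeq2 1.42.0 was an alternative. Shares were compared by exact permutation (scipy 1.17.1). Replicates are pools of mice, so p-values between genotypes rest on the spread between pools. The main fit treated all 16 libraries as independent, although the LZ and DZ libraries of a pool are not. Its p-values between zones compare libraries of the same pools without using that pairing. The labels say that a number marks a sort day, so numbers pair the libraries; deviations of same-numbered libraries correlated at 0.0944 to 0.390. Alternatives changed the scaling, filter, tool, block and libraries. The 10 genes and the lists were chosen with earlier results of these data known. Named genes are the 10, Ptbp1, up to 4 called genes of a list with the largest changes and the 3 most similar genes; Il4ra, Sdc1, Xbp1 and Ighe were added after their values were seen. The filter on low counts left all 10 genes in, and counting error is small at 481 or more counts per gene and library. Intervals from counts were not used, since PCR copies without molecular identifiers are not independent molecules.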

Additional observations from a re-analysis of the deposited data

Results flagged for a closer look

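In the DZ control group, library 3 lay far above the other 3 libraries for 4 of the 10 genes and for Ighe. It held 9876 CPM of Ighg1, 3054 CPM of Igha, 9111 CPM of Iglc1, 3002 CPM of Iglc2 and 342 CPM of Ighe. This library is 1 of the 3 immunoglobulin-rich ones. In the DZ cKO group, library 2 had an Ighg3 share of 1.53% of heavy chain counts, far above the other 3 libraries, which had 0.560 to 0.678%. In all, 6 of 88 groups of 4 libraries were singled out by the gap of an extreme library to its nearest neighbour, and chance alone singles out about 1 in 20 groups.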

How the results depend on the processing

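Counts of the 10 genes called by edgeR moved in 3 comparisons. For LZ cKO against LZ control (0 called) the count was 2 with the replicate block of sort day, 1 without the immunoglobulin-rich libraries and 1 without sort days 2 and 3 (0.0624% of genes), a setting added after seeing the data. For DZ cKO against DZ control (0) it was 3 with the replicate block, and leaving out 1 library gave 0 to 1 (Ighg1 was called without DZ control 3, where 0.382% of genes were). For LZ cKO against DZ cKO (1) it was 7 with the replicate block of sort day (17.3% of genes called), 5 with a replicate block of pool added after seeing the data (17.8%), 6 by DESeq2 (16.1%), 2 with RLE size factors (9.2%), 2 with immunoglobulin genes left out of the scaling (9.03%), 0 with no filter (4.52%), 0 without the immunoglobulin-rich libraries (4%) and 2 without sort days 2 and 3 (0.437%). Leaving out 1 library there gave 0 to 6 (6 without DZ cKO 1, with 8.09% of genes, and 3 without DZ cKO 4, with 6.19%). Neither replicate block changed another call of the 10 genes. The sign-flip test by sort day cannot give less than 0.125 with 4 days.

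Some directions turned; the cause was not tested. With the replicate block, Ighg2c was -0.41 for LZ cKO against LZ control and Ighe 0.28 for LZ cKO against DZ cKO (0.27 with the block of pool). Without the immunoglobulin-rich libraries, Igkc was -0.30 for DZ cKO against DZ control; Ighg1 was 0.55 and Igha 0.68 for LZ control against DZ control; Ighg1 was 0.15 and Ighe 1.38 for LZ cKO against DZ cKO. The interaction was then 0.46 for Ighg2c, 0.22 for Ighg3 and 0.035 for Igkc. Shares for LZ cKO against DZ cKO differed by 0.248 points for Ighg2c and 0.0245 for Ighg3, and for LZ control against DZ control by 1.33 points for Igha. Without sort days 2 and 3, Ighg2c was -1.67 for LZ cKO against LZ control, and Ighd 0.016 and Igkc -0.082 for DZ cKO against DZ control. Ighg1 was 0.37 and Igha 0.49 for LZ control against DZ control, Ighg1 0.049 and Ighe 1.12 for LZ cKO against DZ cKO, and the interaction of Ighg3 was 0.030. Shares then differed by -0.531 points for Ighg2c (LZ cKO against LZ control), 0.0408 for Ighg3 (LZ cKO against DZ cKO) and 0.571 for Igha (LZ control against DZ control).

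Leaving out 1 library at a time gave Igha values of 0.49 to 3.05 for DZ cKO against DZ control and turned these directions. For LZ cKO against LZ control, Ighd ranged from -0.77 to 0.023 and Ighg2c from -0.26 to 1.07, and the shares of Ighd from -0.299 to 0.0653 points and of Ighg2c from -0.276 to 1.503. For DZ cKO against DZ control, Ighd ranged from -0.29 to 0.091 and Iglc2 from -0.82 to 0.27. For LZ control against DZ control, Igha ranged from -1.56 to 0.67 and Ighg1 from -0.65 to 0.54. The shares ranged there from -1.29 to 1.33 points for Igha, -7.65 to 2.23 for Ighm, -2.07 to 5.95 for IgG, -2.73 to 7.28 for switched genes and -5.33 to 0.483 for lambda. For LZ cKO against DZ cKO, Ighe ranged from -0.54 to 0.86, and the shares from -8.10 to 2.55 points for Ighm, -3.14 to 7.72 for switched genes and -5.21 to 2.54 for lambda. The interaction ranged from -0.68 to 0.12 for Ighd and -1.02 to 0.078 for Iglc2. The genotype shares of Ighm, Ighg1, Ighg2b, Ighg3, IgG and switched genes kept their direction under all settings run. Their groups did not overlap, so leaving out libraries could not turn the direction, and the sign-flip test uses the same differences. Of the settings, only adding Ighe and Iglc3 to the counts could have turned it, and it did not. Dividing by length was run for light chains only, since exon lengths of heavy chain genes were not used here.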
